A study of Arabidopsis thaliana with 12 samples.

Results

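The core hypoxia response genes are the Arabidopsis genes that transcript surveys place among those most regularly induced when oxygen falls short. The set was taken by gene identifier as a list of 45 genes of the 33602 in the deposited count table, and 43 of them were among the 20736 genes that passed the filter on low counts. The list covers oxygen sensing, ethanolic fermentation, sugar and amino acid metabolism, haemoglobin, and a number of little-known proteins. Its label was taken as a name for the list. The labels name no low-oxygen treatment and give no oxygen measurement.

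Plants sense oxygen through plant cysteine oxidases, which use it to oxidise the N-terminal cysteine of the group VII ethylene response factors (ERF-VII) and so mark these factors for proteolysis by the N-degron pathway. When oxygen falls, the factors persist, enter the nucleus and switch on genes for fermentation, sucrose breakdown, phytoglobin and the cysteine oxidases themselves. In normally aerated plants, part of this gene set is active in dense tissues such as meristems, where oxygen is scarce.

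Whole Arabidopsis thaliana seedlings of the Col-0 accession were sequenced at an age of 7 days in 4 groups of 3 biological replicates. The groups were gp1-2 exposed to volatiles of GB03 (a growth-promoting Bacillus strain), gp1-2 kept without bacteria, wild type exposed to the same volatiles, and wild type kept without bacteria. gp1-2 is a single T-DNA insertion line (SAIL_209_D07 in the labels), so what distinguishes it from wild type rests on 1 line. All groups were raised on medium with 1% sucrose, at 22 °C with a day of 16 h light and 8 h dark. They were moved at day 5 to a divided plate, where those exposed shared the air with the bacteria for 2 days.

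Library totals ran from 17908408 to 25214934 counts in the gp1-2 libraries and from 11158051 to 15839067 counts in the wild-type libraries, so every gp1-2 library was deeper than every wild-type one. The labels name no locus for the insertion. The series title names a stearoyl-ACP desaturase, and none of the genes of that family measured here lost its counts in gp1-2. Counts per gene do not show whether a transcript or its protein is intact. FAB2 was at 644 ± 80.9 and 679 ± 82.8 CPM in gp1-2 with volatiles and without bacteria, against 176 ± 7.78 and 123 ± 5.33 CPM in wild type with volatiles and without bacteria (mean ± SD, n = 3). CPM is the library-size normalised read count, on sizes scaled by the trimmed mean of M values. The 10 root and 8 shoot marker genes used to check the tissue label were all detected. Summed root markers lay between 219.7 and 271 CPM over the 12 libraries, and PHO1, at group means of 106 to 117 CPM, made up much of that sum. Among the 10 root markers volatiles raised EXPA7 and lowered SKOR in both genotypes (SKOR at -2.77 in gp1-2 and -2.42 in wild type, edgeR adjusted p = 6.2e-08 and 1.8e-07), and 2 were lower in gp1-2 under volatiles and none without bacteria. Summed shoot markers lay between 13028 and 14752 CPM in gp1-2 with volatiles, 20125 and 21078 CPM in gp1-2 without bacteria, 30288 and 34033 CPM in wild type with volatiles, and 31267 and 39283 CPM in wild type without bacteria. The photosynthesis genes RBCS1A and LHCB1.3, at group means of 5400.5 to 10820.4 and 5697 to 14508 CPM, made up much of that sum. In edgeR's quasi-likelihood test at an adjusted p under 0.05, volatiles lowered 6 of the 8 shoot markers in gp1-2 and 4 in wild type, and gp1-2 was lower than wild type for 8 under volatiles and 7 without bacteria. The part of these shoot marker changes in the results was not tested, and in RNA from whole seedlings fewer cells of a type cannot be told apart from less RNA per cell.

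The DNA element through which ERF-VII factors act on several of these genes is the hypoxia-responsive promoter element (HRPE). A loose form of its core, AAACCA followed by any 3 bases and GC, was searched on both strands of the 300 bases before each RefSeq gene start (assembly TAIR10.1). It occurred in 4 of 45 members (8.89%) and in 264 of 27443 protein-coding genes (0.962%). Such an occurrence is called an HRPE match below, and with 3 bases left free it need not be an HRPE. Since the element was already known from several of these genes, the larger share among the members is not an independent result. The matches in ADH1, NIP2;1 and AT4G10270, which held 2, are printed as this search found them, and binding at them was not measured here. Of the 300 bases searched for NIP2;1, 206 are annotated exon of the neighbouring gene AT2G34400, and of those for AT4G10270, 60 are annotated exon of AT4G05775. Each match is read 5′ to 3′ on the strand that carries it, with the matched bases in capitals. They lie at chr1:28975080-28975108 (+), chr2:14516069-14516097 (-), chr4:6374495-6374523 (+) and chr4:6374625-6374653 (+), in the same order as the lines that follow.
ADH1: aaccgcccgAAACCAAAAGCattcgatgg
NIP2;1: tgctctccaAAACCATCTGCtgcaattca
AT4G10270 distal: acaatctcaAAACCAGGTGCacatgatag
AT4G10270 proximal: aaacaaccaAAACCAACGGCcacagcttc

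The shorter string AAACCA, which every HRPE match contains, occurred in 19 of the 45 member windows (42.2%), against 31.8% of all protein-coding genes. The GCC box core GCCGCC, bound by many ERF proteins, occurred in 3 members (6.67%) against 2.26% of all, and the G-box CACGTG in 6 (13.3%) against 7.09%. ADH1 carried both an HRPE match and a G-box, and its window overlaps no exon of another annotated gene, so it is printed whole. The window lies at chr1:28974955-28975254 (+) and ends at the base before the annotated start, again with the HRPE match in capitals. A match describes these letters in this window and is not a measurement of binding.
ADH1 promoter: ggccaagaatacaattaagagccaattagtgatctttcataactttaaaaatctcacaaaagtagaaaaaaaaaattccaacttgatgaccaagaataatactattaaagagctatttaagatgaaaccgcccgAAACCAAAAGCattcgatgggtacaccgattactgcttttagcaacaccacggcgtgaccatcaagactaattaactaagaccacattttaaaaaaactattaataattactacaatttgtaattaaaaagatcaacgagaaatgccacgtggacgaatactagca

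Exposure to GB03 volatiles raised most of these genes in both genotypes. In gp1-2, 25 of the 43 tested members rose and 4 fell, so that 67.4% were called, against 32.3% of all genes tested (14.7% higher and 17.6% lower). In wild type, 26 rose and 6 fell, so that 74.4% were called, against 30.1% of all genes tested (14.8% higher and 15.3% lower). The median log2 fold change of the tested members was 0.56 in gp1-2 and 0.78 in wild type, and the median over all genes was 0.00 in both. AT2G17850, which was near 0 in unexposed wild type, stays above the member median at its lower bound, so that median does not depend on its fitted value. The 24 members that rose in both genotypes came from every functional group except the cell wall pair. The share of all genes that rose in both genotypes was not counted.

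**Figure D1:**
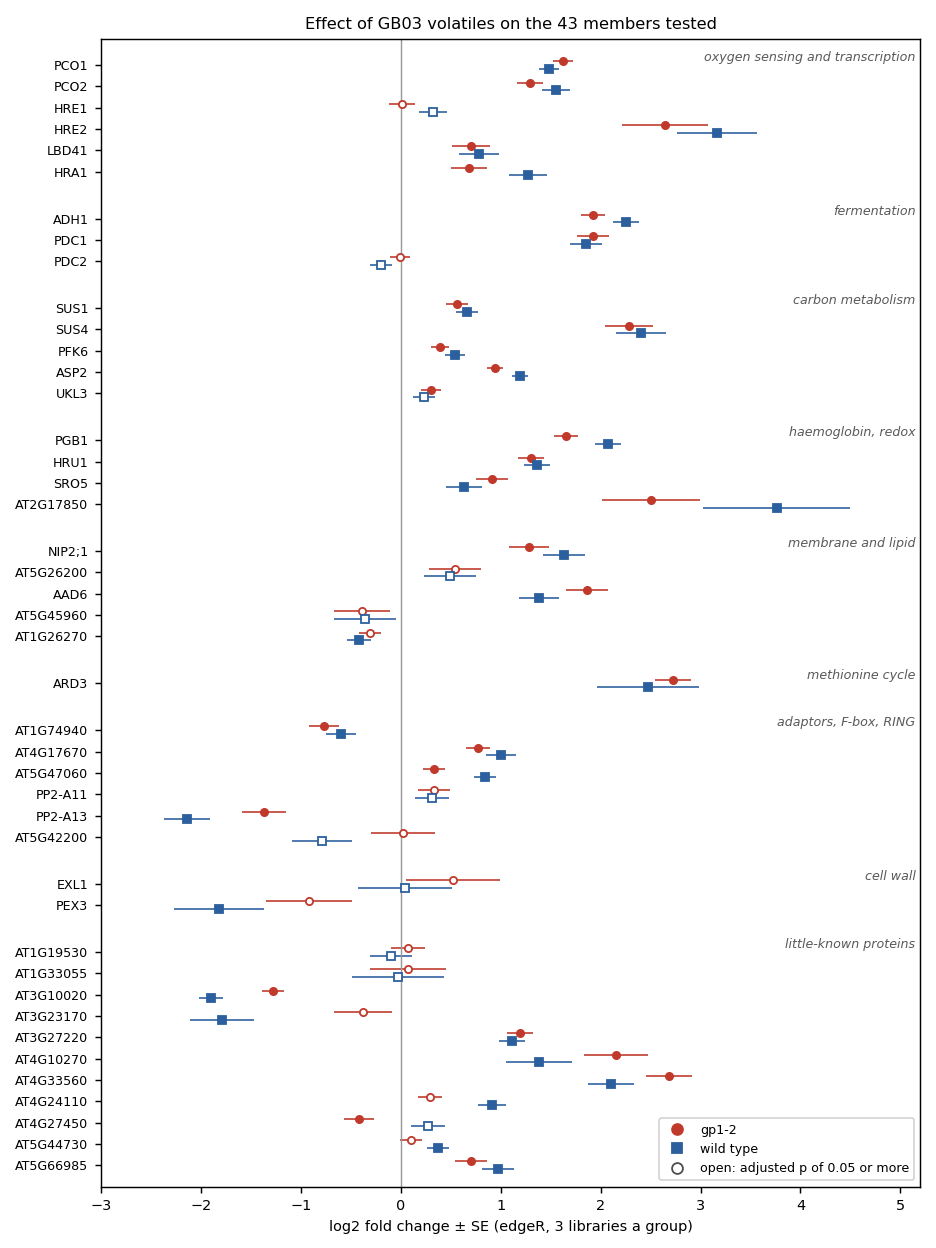
Log2 fold change (± SE) of the 43 tested members with GB03 volatiles against no bacteria, in gp1-2 and in wild type, ordered by role. Filled symbols have an edgeR adjusted p under 0.05. In gp1-2 25 of the filled points lie right of 0 and 4 left of it, and in wild type 26 lie right and 6 left; the wild-type point of AT2G17850 is a fitted value against a group near 0.

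Among the oxygen sensors, PCO1 and PCO2 are the cysteine oxidase genes induced by hypoxia. PCO1 had 18.9, 19.3 and 17.8 CPM in gp1-2 with volatiles, against 6.45, 5.69 and 6.09 CPM in gp1-2 without bacteria. In wild type it had 22.8, 22.9 and 20.8 CPM with volatiles, against 8.04, 7.71 and 8.03 CPM without bacteria. The exposed and unexposed libraries did not overlap in either genotype. The log2 fold change was 1.62 ± 0.10 in gp1-2 (SE; edgeR adjusted p = 3.6e-08) and 1.48 ± 0.10 in wild type (edgeR adjusted p = 7.7e-08). PCO2 had 15.3, 13.5 and 14.7 CPM in gp1-2 with volatiles, against 6.12, 4.92 and 6.77 CPM without bacteria. In wild type, PCO2 had 18.7, 16.8 and 15.3 CPM with volatiles, against 5.88, 5.30 and 6.21 CPM without bacteria. It rose by 1.29 ± 0.13 in gp1-2 (edgeR adjusted p = 3.2e-06) and by 1.55 ± 0.14 in wild type (edgeR adjusted p = 1.2e-06) on the log2 scale, again with no overlap.

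Of the hypoxia-induced ERF-VII genes, HRE2 rose and HRE1 was not called. HRE2 was scarce, with 1.78, 2.25 and 2.16 CPM in gp1-2 with volatiles, against 0.496, 0.111 and 0.370 CPM in gp1-2 without bacteria. In wild type HRE2 had 4.67, 4.80 and 4.98 CPM with volatiles, against 0.270, 0.268 and 1.24 CPM without bacteria. Exposed libraries stood above unexposed ones in both genotypes, with log2 fold changes of 2.64 ± 0.43 (edgeR adjusted p = 2.8e-04) in gp1-2 and 3.16 ± 0.40 (edgeR adjusted p = 3.6e-05) in wild type. HRE1 had 7.23, 7.94 and 6.52 CPM in gp1-2 with volatiles, against 6.67, 7.13 and 7.73 CPM without bacteria. In wild type HRE1 had 8.74, 7.11 and 9.05 CPM with volatiles, against 6.56, 7.04 and 6.31 CPM without bacteria. The gp1-2 libraries overlapped, and HRE1 was not called in gp1-2 (0.01 ± 0.13, edgeR adjusted p = 0.972) or in wild type (0.32 ± 0.14, edgeR adjusted p = 0.0968), where it was 0.42 and called without exposed replicate 2. Its locus overlaps an annotated neighbour on the other strand, so its counts are less certain. The same holds for ADH1, PFK6, SRO5, NIP2;1, AT5G47060, PP2-A13, AT4G10270, AT4G27450 and AT5G44730, which were called for volatiles in at least 1 genotype.

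LBD41, a LOB-domain transcription factor, had 27.0, 23.0 and 21.0 CPM in gp1-2 with volatiles, against 13, 11.6 and 18.9 CPM without bacteria. In wild type LBD41 had 25.2, 20.9 and 19.6 CPM with volatiles, against 10.3, 11.3 and 17.3 CPM without bacteria. The third unexposed library was the highest of its group in both genotypes, but stayed below every exposed library of its genotype. LBD41 rose by 0.70 ± 0.19 (edgeR adjusted p = 0.00995) in gp1-2, where leaving out unexposed replicate 2 gave 0.57 and ended the call, and by 0.78 ± 0.20 (edgeR adjusted p = 0.0086) in wild type. HRA1, a trihelix factor that attenuates the ERF-VII response, had 9.50, 11.2 and 9.69 CPM in gp1-2 with volatiles, against 5.62, 4.92 and 8.47 CPM without bacteria. In wild type HRA1 had 15.2, 16.4 and 13.6 CPM with volatiles, against 5.07, 5.97 and 7.93 CPM without bacteria. Neither genotype's groups overlapped. The log2 rise was 0.68 ± 0.18 (edgeR adjusted p = 0.0114) in gp1-2, where leaving out unexposed replicate 1 or 2 gave 0.60 or 0.52 and ended the call, and 1.27 ± 0.19 (edgeR adjusted p = 1.8e-04) in wild type.

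The upstream parts of the pathway were listed separately. Of 12 genes for the constitutive ERF-VII factors, the other cysteine oxidases, arginyl transferases, the ubiquitin ligase PRT6, BIG and the acyl-CoA-binding proteins that hold ERF-VII at the membrane, none rose with volatiles in either genotype. Over all genes tested, 14.7% rose in gp1-2 and 14.8% in wild type. The absence of a rise among these 12 was not tested against those shares. In gp1-2, 2 fell (16.7%) and in wild type 1 (8.33%), against 17.6% and 15.3% of all genes tested, so the counts that fell were no larger than the background. RAP2.3, an ERF-VII factor, averaged 118 ± 9.13 CPM in gp1-2 with volatiles, against 263 ± 37.3 CPM in gp1-2 without bacteria (log2 fold change -1.16 ± 0.12, edgeR adjusted p = 3.2e-06). In wild type RAP2.3 averaged 195 ± 17.0 CPM with volatiles, against 208 ± 22.0 CPM without bacteria (-0.09 ± 0.11, edgeR adjusted p = 0.605). The difference between these effects was itself called (-1.07 ± 0.16, edgeR adjusted p = 0.00251). RAP2.12, the main ERF-VII activator, fell by 0.24 in gp1-2 (edgeR adjusted p = 0.0192), and PCO4 fell by 0.35 in wild type (edgeR adjusted p = 0.0383). Of the 12 genes, RAP2.3 alone was called for the difference between the genotypes.

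The ethanolic fermentation genes ADH1 and PDC1 both rose in both genotypes. ADH1, alcohol dehydrogenase, had 93.2, 88.6 and 106 CPM in gp1-2 with volatiles, against 25.1, 21.7 and 29.4 CPM without bacteria. In wild type ADH1 had 122, 104 and 98.4 CPM with volatiles, against 23.5, 20.7 and 24.4 CPM without bacteria. The exposed libraries lay far above the unexposed ones, and the log2 fold change was 1.92 ± 0.12 in gp1-2 (edgeR adjusted p = 6.0e-08) and 2.25 ± 0.13 in wild type (edgeR adjusted p = 1.5e-08). PDC1, a pyruvate decarboxylase, had 63.4, 65.5 and 73.7 CPM in gp1-2 with volatiles, against 16.6, 14.2 and 22.5 CPM without bacteria. In wild type PDC1 had 95.1, 91.5 and 78.5 CPM with volatiles, against 21.8, 20.9 and 31.2 CPM without bacteria. It rose by 1.92 ± 0.16 (edgeR adjusted p = 7.3e-07) and 1.85 ± 0.16 (edgeR adjusted p = 1.3e-06) on the log2 scale in gp1-2 and wild type. PDC2, the second pyruvate decarboxylase on the list, was not called for volatiles: it had 113, 103 and 93.7 CPM in gp1-2 with volatiles, against 113, 100.1 and 98.1 CPM without bacteria, and 73.4, 64.1 and 61.6 CPM in wild type with volatiles, against 83.7, 68.9 and 75.7 CPM without bacteria. Its libraries overlapped in both genotypes (-0.01 ± 0.10 and -0.20 ± 0.11, edgeR adjusted p = 0.975 and 0.177).

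**Figure D2:**
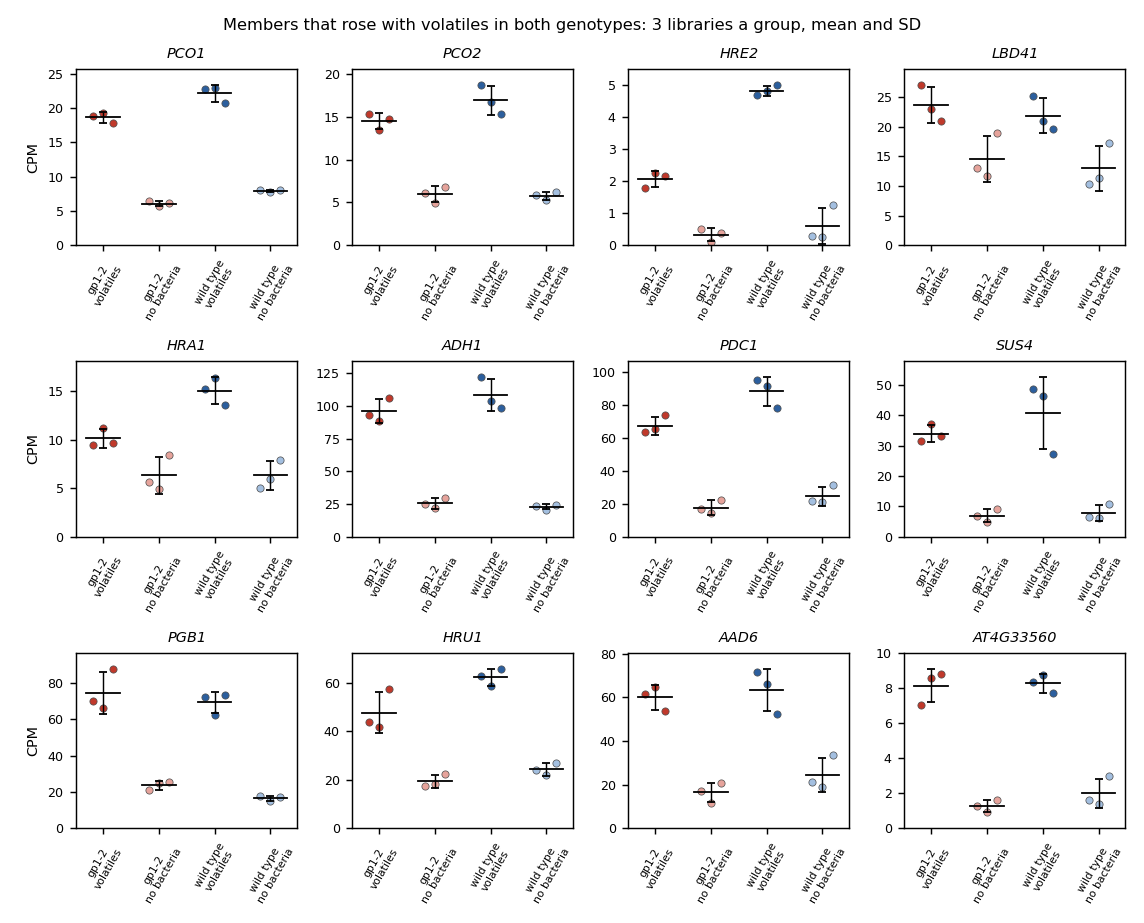
CPM in each library (points) and the group mean (bar) for members that rose with volatiles in both genotypes. Exposed libraries lie above unexposed ones in every panel, for example 88.6 to 106 against 21.7 to 29.4 CPM for ADH1 in gp1-2.

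Sucrose synthases split sucrose without spending ATP, and both on the list rose. SUS4 had 31.6, 37.0 and 33.2 CPM in gp1-2 with volatiles, against 6.89, 4.81 and 9.15 CPM without bacteria. In wild type SUS4 had 48.7, 46.4 and 27.1 CPM with volatiles, against 6.62, 6.17 and 10.9 CPM without bacteria. Its log2 fold change was 2.28 ± 0.24 in gp1-2 (edgeR adjusted p = 5.8e-06) and 2.40 ± 0.25 in wild type (edgeR adjusted p = 6.7e-06). SUS1 had 142, 149.9 and 146 CPM in gp1-2 with volatiles, against 97.9, 95.7 and 103 CPM without bacteria. In wild type SUS1 had 58.5, 58.9 and 43.1 CPM with volatiles, against 32.6, 32.0 and 37.1 CPM without bacteria. Its change was smaller, at 0.56 ± 0.11 (edgeR adjusted p = 9.6e-04) and 0.66 ± 0.11 (edgeR adjusted p = 4.8e-04), with no overlap within a genotype. PFK6, a phosphofructokinase of glycolysis, had 19.5, 20.0 and 19.5 CPM in gp1-2 with volatiles, against 14.8, 13.4 and 16.6 CPM without bacteria. In wild type PFK6 had 21.2, 23.8 and 22.7 CPM with volatiles, against 15.6, 15.2 and 15.8 CPM without bacteria. It rose by 0.39 ± 0.09 (edgeR adjusted p = 0.00426) and 0.54 ± 0.10 (edgeR adjusted p = 6.2e-04). ASP2, a cytosolic aspartate aminotransferase, rose by 0.94 and 1.19 on the log2 scale in gp1-2 and wild type, and UKL3, a uridine kinase-like gene, was called in gp1-2 (0.30, edgeR adjusted p = 0.0394) and not in wild type (0.23, edgeR adjusted p = 0.115), a difference that was not called itself (edgeR adjusted p = 0.9). The UKL3 call was lost without exposed gp1-2 replicate 1 or 2 or unexposed replicate 1 or 3 (0.25 to 0.29).

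Of 22 further fermentation and glycolysis genes outside the list, 21 were tested. With volatiles 10 rose and 3 fell in gp1-2 (61.9% called), and 8 rose and 2 fell in wild type (47.6%), against 32.3% and 30.1% of all genes tested. The cytosolic enolase ENO2 averaged 1557 ± 64.4 CPM in gp1-2 with volatiles, against 905 ± 89.1 CPM without bacteria, and 1421 ± 78.4 CPM in wild type with volatiles, against 871 ± 108 CPM without bacteria (0.78 and 0.71 on the log2 scale, edgeR adjusted p = 3.4e-05 and 1.1e-04). GAD4, a glutamate decarboxylase, rose by 0.86 and 0.94, and the phosphofructokinase PFK7 by 0.86 and 0.39, in gp1-2 and wild type (edgeR adjusted p = 5.3e-04 and 0.00361 for GAD4, 3.4e-06 and 0.00415 for PFK7). Lactate dehydrogenase LDH rose by 0.80 in gp1-2 (edgeR adjusted p = 7.9e-05), and its value in wild type was 0.26 (edgeR adjusted p = 0.106). None of the 21 tested genes, LDH included, was called for the difference between these effects.

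PGB1, the class 1 phytoglobin that scavenges nitric oxide, had 69.7, 65.9 and 87.7 CPM in gp1-2 with volatiles, against 20.9, 25.1 and 25.3 CPM without bacteria. In wild type PGB1 had 72.0, 62.2 and 73.1 CPM with volatiles, against 17.6, 14.8 and 17.0 CPM without bacteria. Every exposed library lay above every unexposed one, and PGB1 rose by 1.65 ± 0.12 in gp1-2 (edgeR adjusted p = 2.0e-07) and 2.07 ± 0.13 in wild type (edgeR adjusted p = 3.9e-08). Of the other 2 haemoglobin genes, which are outside the list, PGB2 fell by 0.47 in gp1-2 (edgeR adjusted p = 0.00958), and PGB3 rose by 0.63 in wild type (edgeR adjusted p = 0.00112). Neither was called in the other genotype or for the difference between the genotypes. HRU1, a universal stress protein that modulates hydrogen peroxide production in hypoxia, had 43.9, 41.6 and 57.4 CPM in gp1-2 with volatiles, against 17.6, 18.1 and 22.4 CPM without bacteria. In wild type HRU1 had 62.6, 58.6 and 65.6 CPM with volatiles, against 24.2, 21.8 and 26.8 CPM without bacteria. It rose by 1.3 ± 0.13 (edgeR adjusted p = 3.1e-06) and 1.36 ± 0.13 (edgeR adjusted p = 2.9e-06). SRO5, a relative of the RCD1 stress regulator, rose by 0.91 and 0.63, and lost the call in wild type without exposed replicate 2 or unexposed replicate 1 or 2 (0.53 to 0.59).

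AT2G17850, a rhodanese-like protein gene, was close to the counting limit. It had 1.09, 0.688 and 1.08 CPM in gp1-2 with volatiles, against 0.110, 0.0553 and 0.317 CPM without bacteria. In wild type AT2G17850 had 0.801, 0.921 and 0.582 CPM with volatiles, against 0, 0.0671 and 0.0956 CPM without bacteria. It was called in both genotypes (edgeR adjusted p = 0.00122 and 0.00148). Since no unexposed wild-type library exceeded 3 counts, its rise in wild type is given as at least 3.34-fold, set against a floor of 3 counts per library. The fitted change in gp1-2 was 2.50 ± 0.49 on the log2 scale.

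AAD6, itself a stearoyl-ACP desaturase gene, had 61.5, 64.6 and 53.6 CPM in gp1-2 with volatiles, against 16.9, 11.8 and 20.7 CPM without bacteria. In wild type AAD6 had 71.4, 66.1 and 52.4 CPM with volatiles, against 21.0, 19.1 and 33.5 CPM without bacteria. The exposed and unexposed libraries were apart in both genotypes, and AAD6 rose by 1.86 ± 0.21 in gp1-2 (edgeR adjusted p = 7.8e-06) and 1.38 ± 0.20 in wild type (edgeR adjusted p = 1.5e-04). NIP2;1, an aquaporin-family channel for lactic acid whose HRPE match is printed above, averaged 2.65 ± 0.220 CPM in gp1-2 with volatiles, against 1.09 ± 0.128 CPM without bacteria, and 3.73 ± 0.435 CPM in wild type with volatiles, against 1.20 ± 0.0473 CPM without bacteria. Its log2 fold changes were 1.28 ± 0.20 (edgeR adjusted p = 2.0e-04) and 1.63 ± 0.21 (edgeR adjusted p = 4.4e-05). Of the 50-base stretches in its exons, 10.2% also occur in AT2G29870, so its counts are less certain. The mitochondrial carrier AT5G26200 and the GDSL lipase AT5G45960 were not called in either genotype.

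Several little-known members were among those that rose most. AT4G33560, annotated as wound-responsive, had 7.03, 8.58 and 8.80 CPM in gp1-2 with volatiles, against 1.27, 0.940 and 1.59 CPM without bacteria. In wild type AT4G33560 had 8.34, 8.75 and 7.69 CPM with volatiles, against 1.62, 1.41 and 2.96 CPM without bacteria. All exposed libraries were above all unexposed ones, at log2 fold changes of 2.68 ± 0.23 and 2.1 ± 0.23 in gp1-2 and wild type (edgeR adjusted p = 6.6e-07 and 1.0e-05). AT4G10270, another gene annotated as wound-responsive and the one with a pair of HRPE matches, averaged 2.18 ± 0.490 CPM in gp1-2 with volatiles, against 0.486 ± 0.235 CPM without bacteria, and 1.95 ± 0.262 CPM in wild type with volatiles, against 0.730 ± 0.153 CPM without bacteria. It rose by 2.15 ± 0.32 (edgeR adjusted p = 1.2e-04) and 1.38 ± 0.33 (edgeR adjusted p = 0.0057). The kelch-repeat gene AT3G27220 rose by 1.19 and 1.11, and AT5G66985 by 0.70 and 0.97, in gp1-2 and wild type. The DUF581 genes, whose products bind the energy-sensing kinase SnRK1, did not move one way: AT4G17670 rose by 0.77 and 1.00 and AT5G47060 by 0.33 and 0.84, and AT1G74940 fell. The AT5G47060 call in gp1-2 was lost without exposed replicate 3 or unexposed replicate 1 or 2 (0.25 to 0.34). AT4G24110 and AT5G44730 were called in wild type (0.91 and 0.37) and not in gp1-2 (0.29 and 0.10), and AT5G44730 lost its call without exposed replicate 3 or unexposed replicate 2 or 3 (0.29 to 0.33). ADH1, NIP2;1 and AT4G10270, whose HRPE matches are printed above, were among the 24 of 43 tested members that rose in both genotypes. Others of the 24, such as PCO1, PDC1 and PGB1, had no match. A link between a match and a rise was not tested.

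The members that fell went against most of the list. AT3G10020, a gene of unknown function, had 90.7, 87.2 and 82.9 CPM in gp1-2 with volatiles, against 198, 228 and 206 CPM without bacteria. In wild type AT3G10020 had 47.5, 47.5 and 62.7 CPM with volatiles, against 178, 195 and 214 CPM without bacteria. The groups were fully apart, and the log2 fold change was -1.28 ± 0.11 in gp1-2 (edgeR adjusted p = 9.6e-07) and -1.90 ± 0.12 in wild type (edgeR adjusted p = 3.5e-08). Scaled to exon length, it stood at 47.1 CPM per kb of merged exon in wild type with volatiles, below ASP2 (111), EXL1 (91.8), PGB1 (69.9) and ADH1 (67.7). In wild type without bacteria it stood at 175 CPM per kb, the highest of the 45 members, ahead of EXL1 (89.4), ASP2 (48.5), PGB1 (16.7) and ADH1 (14.4). PP2-A13, of the phloem protein 2 family, had 10.3, 10.3 and 10.8 CPM in gp1-2 with volatiles, against 21.7, 36.2 and 23.5 CPM without bacteria. In wild type PP2-A13 had 6.81, 6.51 and 9.89 CPM with volatiles, against 26.5, 45.6 and 30.3 CPM without bacteria. Its log2 fold change was -1.37 ± 0.22 in gp1-2 (edgeR adjusted p = 2.1e-04) and -2.14 ± 0.23 in wild type (edgeR adjusted p = 8.9e-06).

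AT1G74940, a DUF581 gene, had 7.82, 7.52 and 9.19 CPM in gp1-2 with volatiles, against 15.3, 13.7 and 13.1 CPM without bacteria. In wild type AT1G74940 had 9.41, 11 and 14.5 CPM with volatiles, against 19.7, 16.6 and 16.6 CPM without bacteria. Exposed libraries lay below the unexposed ones of the same genotype (-0.77 ± 0.15 and -0.60 ± 0.15, edgeR adjusted p = 9.3e-04 and 0.00655). PEX3, a leucine-rich repeat extensin gene, was called in wild type, where it had 27.7, 23.9 and 8.73 CPM with volatiles, against 35.5, 82.9 and 95.9 CPM without bacteria. PEX3 differed by -1.82 ± 0.45 (edgeR adjusted p = 0.00623), and by -1.20 without replicate 3 of every group. In gp1-2, PEX3 had 24.5, 32.2 and 13.8 CPM with volatiles, against 36.4, 69.3 and 26.9 CPM without bacteria, which overlapped (-0.92 ± 0.43, edgeR adjusted p = 0.12). EXL1, an EXORDIUM-like gene, scattered widely within groups. It had 115, 93.9 and 81.4 CPM in gp1-2 with volatiles, against 26.3, 79.1 and 96.6 CPM without bacteria. In wild type EXL1 had 163, 116 and 66.5 CPM with volatiles, against 36.0, 148 and 152 CPM without bacteria. It was not called in either genotype.

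AT3G23170, a gene of unknown function, had 37.6, 22.7 and 26.6 CPM in gp1-2 with volatiles, against 38.8, 42.1 and 32.2 CPM without bacteria. In wild type AT3G23170 had 15.8, 8.23 and 6.92 CPM with volatiles, against 46.3, 40.7 and 18.5 CPM without bacteria. The gp1-2 groups overlapped and the wild-type groups did not (-0.38 ± 0.29, edgeR adjusted p = 0.337, in gp1-2; -1.79 ± 0.32, edgeR adjusted p = 7.2e-04, in wild type). AT1G26270, of the phosphatidylinositol kinase family, had 73.5, 83.9 and 86.6 CPM in gp1-2 with volatiles, against 111, 97.2 and 93.8 CPM without bacteria. In wild type AT1G26270 had 51.4, 55.2 and 56.8 CPM with volatiles, against 85.8, 70.9 and 61.7 CPM without bacteria. The change was called in wild type (-0.42 ± 0.12, edgeR adjusted p = 0.0131; -0.38 or -0.29 and lost without exposed or unexposed replicate 1) and missed the threshold in gp1-2 (-0.31 ± 0.11, edgeR adjusted p = 0.0512; -0.35 and called without unexposed gp1-2 replicate 3). AT4G27450, annotated as aluminium-induced, had 21.8, 22.1 and 23.3 CPM in gp1-2 with volatiles, against 26.2, 35.6 and 28.4 CPM without bacteria. In wild type AT4G27450 had 23.5, 19.3 and 15.5 CPM with volatiles, against 13.9, 19.7 and 14.4 CPM without bacteria. Its fall in gp1-2 (-0.42 ± 0.15, edgeR adjusted p = 0.0445) was lost in 8 of 22 alternative settings, among them without any exposed gp1-2 replicate, unexposed gp1-2 replicate 2 or 3, or exposed wild-type replicate 2 (-0.29 to -0.46), and its value in wild type was 0.27 ± 0.17 (edgeR adjusted p = 0.238).

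**Figure D3:**
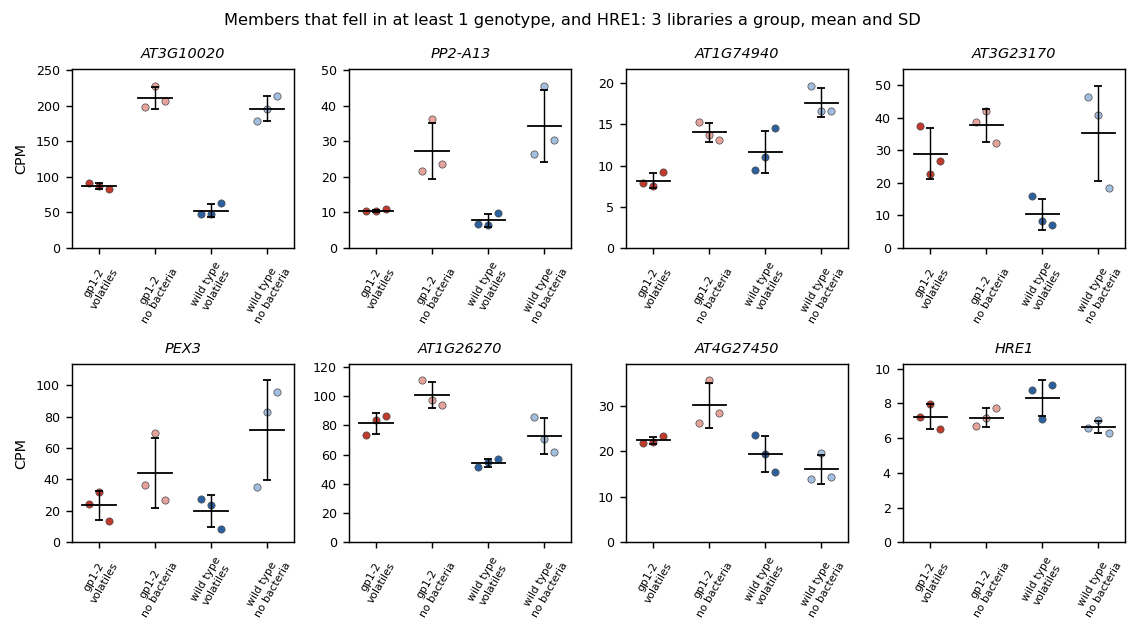
CPM in each library (points) and the group mean (bar) for members that fell with volatiles in at least 1 genotype, and for HRE1. AT3G10020 lies at 82.9 to 90.7 CPM in gp1-2 with volatiles, against 198 to 228 without bacteria, and HRE1 libraries overlap in gp1-2.

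Volatiles changed none of HRE1, PDC2, AT5G26200, AT5G45960, PP2-A11, AT5G42200, EXL1, AT1G19530 and AT1G33055 past the threshold in either genotype. With single libraries left out some of them passed it: PP2-A11 at 0.50 in gp1-2 without unexposed replicate 3 and at 0.55 in wild type without unexposed replicate 2, AT5G26200 at 0.73 in gp1-2 without exposed replicate 1, and AT5G42200 at -1.07 in wild type without unexposed replicate 1. AT3G29970, a B12D-family gene, and AT5G10040 did not pass the filter on low counts. AT3G29970 was at 0.445, 0.229 and 0.309 CPM in gp1-2 with volatiles, against 0 in all 3 libraries of gp1-2 without bacteria, which is at least 2.01-fold higher against a floor of 3 counts per library and was not tested. In wild type AT3G29970 was at 0, 0.0658 and 0 CPM with volatiles, against 0.0676, 0.0671 and 0.191 CPM without bacteria, at or below that floor in every library. AT5G10040 had 0.148, 0.459 and 0.309 CPM in gp1-2 with volatiles, against 0.220, 0.0553 and 0.159 CPM without bacteria, and 0.667, 0.658 and 0.453 CPM in wild type with volatiles, against 0, 0.201 and 0.478 CPM without bacteria.

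The next question was whether the insertion line differed from wild type in these genes. Under volatiles 20 of the 43 tested members were called between gp1-2 and wild type (11 higher and 9 lower in gp1-2), which is 46.5%, against 45.9% of all genes tested (22.6% higher and 23.3% lower). Without bacteria 14 were called (10 higher and 4 lower), which is 32.6%, against 37.2% of all genes (20.0% higher and 17.2% lower). The members' shares are close to those of all genes, and their median log2 differences of -0.08 under volatiles and 0.02 without bacteria stood beside -0.04 and -0.02 over all genes. With upper-quartile scaling the split of member calls was 10 higher and 12 lower under volatiles and 10 higher and 8 lower without bacteria, with all-gene medians of -0.13 and -0.11. The gp1-2 libraries were the deeper ones, and with all libraries thinned to the smallest the split was 9 higher and 6 lower under volatiles and 10 higher and 3 lower without bacteria. Of the calls over all genes, 40.2% under volatiles and 41.7% without bacteria were higher with upper-quartile scaling. With thinning these shares were 49.8% and 54.2%. Of the tested members, 8 were higher in gp1-2 in both conditions, 1 was lower in both, and 18 were called in neither. The shares of all genes called in both conditions or in neither were not counted, so these counts are not set against a background.

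**Figure D4:**
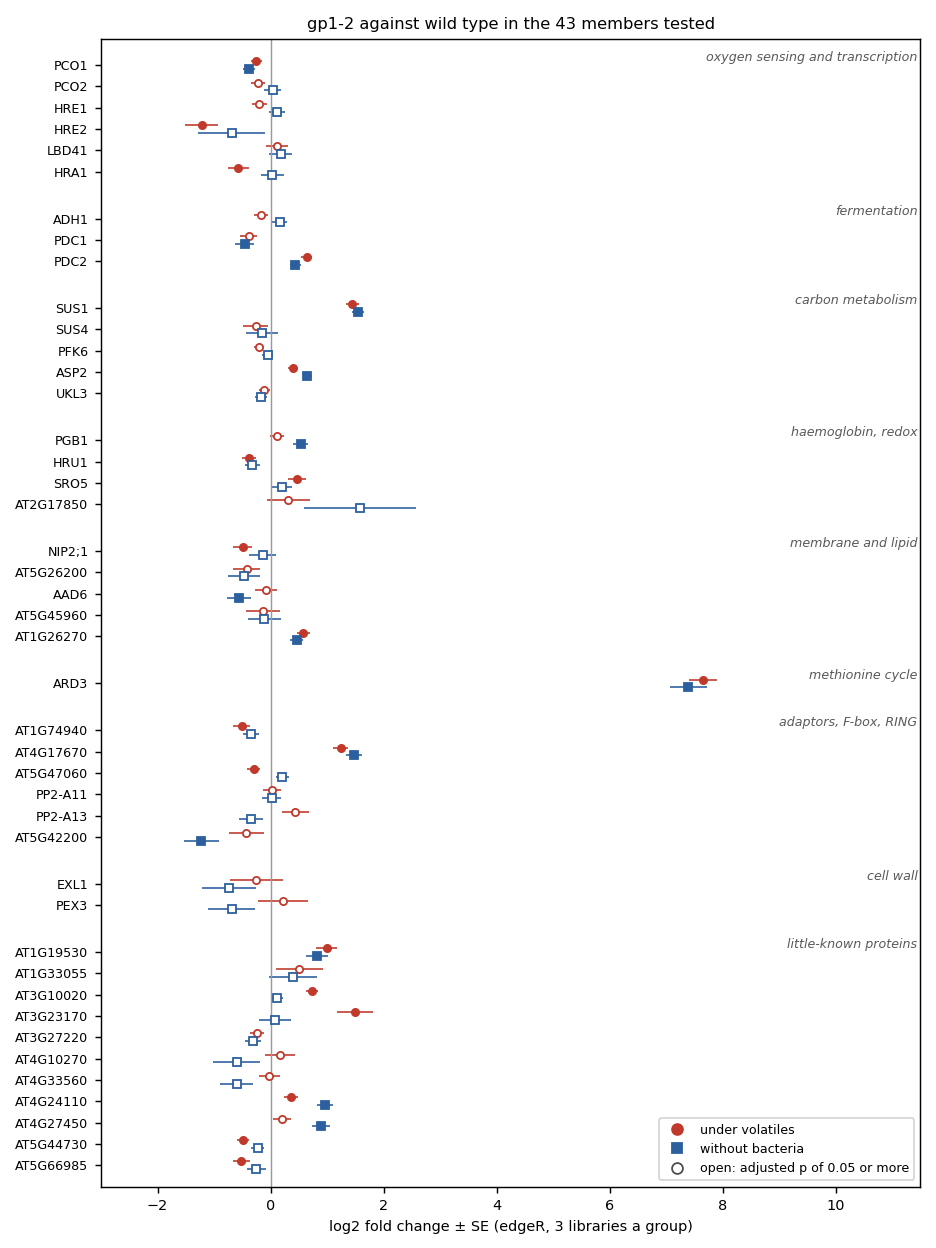
Log2 fold change (± SE) of gp1-2 against wild type for the 43 tested members, under volatiles and without bacteria. ARD3 stands at 7.65 and 7.39, and all other members lie between -1.23 and 1.58.

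ARD3, an acireductone dioxygenase of the cycle that salvages methionine, differed most. It had 377, 308 and 335 CPM in gp1-2 with volatiles, against 2.00, 1.78 and 1.29 CPM in wild type with volatiles. Without bacteria, ARD3 had 41.6, 42.2 and 70.6 CPM in gp1-2, against 0.135, 0.335 and 0.478 CPM in wild type, where the libraries held 2, 5 and 5 counts. gp1-2 was higher by 7.65 ± 0.25 on the log2 scale under volatiles (edgeR adjusted p = 1.7e-12) and by 7.39 ± 0.33 without bacteria (edgeR adjusted p = 6.6e-11). Within each genotype ARD3 also rose with volatiles, by 2.72 ± 0.18 in gp1-2 (edgeR adjusted p = 8.1e-08) and 2.47 ± 0.51 in wild type (edgeR adjusted p = 0.00204), so the 4 groups did not overlap. Scaled to exon length, ARD3 stood at 303 CPM per kb in gp1-2 with volatiles, against 1.51 CPM per kb in wild type with volatiles. In gp1-2 with volatiles it thereby passed ASP2, at 145 CPM per kb. In wild type with volatiles it stood below ASP2, at 111 CPM per kb.

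The summed CPM of the 45 members, ARD3 included, was 1947, 1867 and 1885 in gp1-2 with volatiles, against 1161, 1254 and 1294 in gp1-2 without bacteria. In wild type the sum was 1492, 1371 and 1252 with volatiles, against 951, 1107 and 1149 without bacteria. Without ARD3 the sums in gp1-2 were 1570.1, 1559 and 1550.2 with volatiles, against 1119, 1212 and 1224 without bacteria, and those of wild type changed by no more than 2 CPM.

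SUS1 was higher in gp1-2 than in wild type by 1.45 ± 0.11 under volatiles (edgeR adjusted p = 3.3e-08) and by 1.55 ± 0.11 without bacteria (edgeR adjusted p = 3.1e-08). Its unexposed gp1-2 libraries (95.7 to 103 CPM) stood above its exposed wild-type libraries (43.1 to 58.9 CPM). The DUF581 gene AT4G17670 had 27.3, 26.9 and 28.3 CPM in gp1-2 with volatiles, against 11.2, 11.8 and 12 CPM in wild type with volatiles. Without bacteria AT4G17670 had 15.1, 15.8 and 17.4 CPM in gp1-2, against 5.14, 7.58 and 4.49 CPM in wild type. The log2 differences were 1.24 ± 0.13 (edgeR adjusted p = 9.4e-07) and 1.47 ± 0.14 (edgeR adjusted p = 9.0e-07). PDC2 was higher in gp1-2 by 0.64 ± 0.10 under volatiles (edgeR adjusted p = 1.2e-04) and 0.44 ± 0.10 without bacteria (edgeR adjusted p = 0.00334), with no overlap in either condition. The others higher in both conditions were ASP2 (0.39 and 0.65), AT1G26270 (0.58 and 0.46), AT1G19530 (0.99 and 0.82) and AT4G24110 (0.36 and 0.97). The value of AT4G24110 under volatiles lost its call in 7 of 22 alternative settings, among them without exposed gp1-2 replicate 1 or 2 or exposed wild-type replicate 2 or 3 (0.26 to 0.37).

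**Figure D5:**
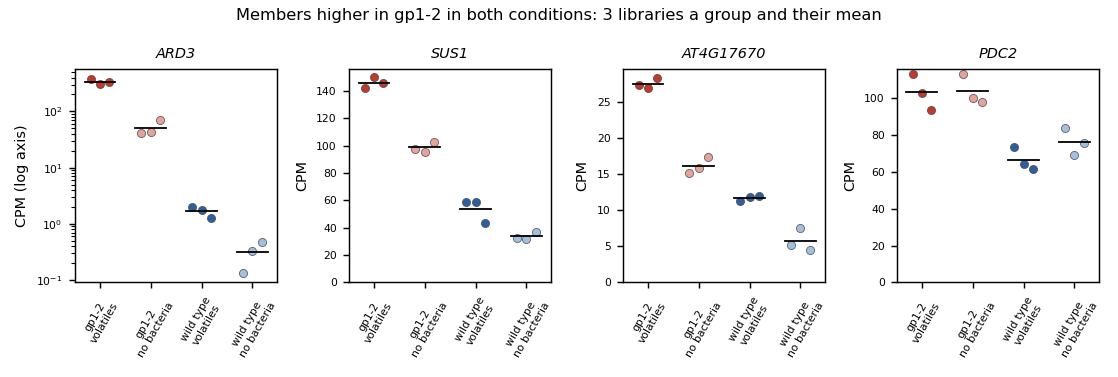
CPM in each library (points) and the group mean (bar) for members higher in gp1-2 in both conditions; the ARD3 axis is logarithmic. SUS1 lies at 95.7 to 103 CPM in gp1-2 without bacteria, above 43.1 to 58.9 CPM in wild type with volatiles.

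Of the 6 genes for oxygen sensing and transcription, 3 were lower in gp1-2 under volatiles, 1 was lower without bacteria and none was higher. Over all genes tested, 23.3% were lower under volatiles and 17.2% without bacteria. HRE2 was lower in gp1-2 than in wild type under volatiles (-1.22 ± 0.29, edgeR adjusted p = 0.00305), with 1.78 to 2.25 CPM in gp1-2 and 4.67 to 4.98 CPM in wild type. HRA1 was lower too (-0.57 ± 0.18, edgeR adjusted p = 0.0146), and gave -0.53 or -0.50 and no call without gp1-2 replicate 1 or wild-type replicate 2 of the exposed libraries. PCO1 was lower in gp1-2 both under volatiles (-0.25 ± 0.09, edgeR adjusted p = 0.0303) and without bacteria (-0.38 ± 0.11, edgeR adjusted p = 0.0109). The PCO1 call under volatiles was lost in 9 of 22 alternative settings, among them the removal of exposed gp1-2 replicate 1 or 3 (-0.26 or -0.21) or of exposed wild-type replicate 1 or 2 (-0.23 each). Without bacteria HRU1 was -0.32 (edgeR adjusted p = 0.0755), and was called with the replicate number as a block (-0.33, edgeR adjusted p = 0.00822). PCO2, HRE1 and LBD41 were not called between the genotypes in either condition. AT5G66985, of unknown function, had 9.85, 10.6 and 9.96 CPM in gp1-2 with volatiles, against 16.1, 12.5 and 15.0 CPM in wild type with volatiles. The difference of -0.52 ± 0.15 (edgeR adjusted p = 0.0101) was -0.44 and not called without exposed wild-type replicate 1. The others lower in gp1-2 under volatiles were HRU1 (-0.38), NIP2;1 (-0.49), AT1G74940 (-0.51), AT5G47060 (-0.30) and AT5G44730 (-0.49). Apart from AT5G44730, each lost its call when single exposed libraries were left out: HRU1 without gp1-2 replicate 1 or 2 or wild-type replicate 3 (-0.30 to -0.34), and NIP2;1 without gp1-2 replicate 1 or 2 or wild-type replicate 1 or 3 (-0.39 to -0.51). AT1G74940 lost it without wild-type replicate 3 (-0.31), and AT5G47060 without gp1-2 replicate 1 or 2 or wild-type replicate 3 (-0.24 to -0.28).

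AT3G23170 was higher in gp1-2 than in wild type under volatiles (1.49 ± 0.32, edgeR adjusted p = 0.0012), as were AT3G10020 (0.73 ± 0.11, edgeR adjusted p = 7.3e-05) and SRO5 (0.47 ± 0.16, edgeR adjusted p = 0.0217). SRO5 gave 0.44 without exposed gp1-2 replicate 3, 0.34 without exposed wild-type replicate 3 and 0.31 without replicate 3 of every group, with no call in these settings. Without bacteria PGB1 and AT4G27450 were higher in gp1-2 (0.53 ± 0.13 and 0.90 ± 0.16, edgeR adjusted p = 0.0042 and 3.6e-04). AT5G42200, a RING-type protein gene, had 2.70, 2.71 and 2.12 CPM in gp1-2 without bacteria, against 3.58, 4.96 and 9.66 CPM in wild type without bacteria. Under volatiles AT5G42200 had 2.62, 2.48 and 2.51 CPM in gp1-2, against 2.27, 4.15 and 3.81 CPM in wild type, which overlapped. Its difference without bacteria was -1.23 ± 0.31 (edgeR adjusted p = 0.00508), -0.77 (still called) without unexposed wild-type replicate 3, and -0.66 with no call without replicate 3 of every group.

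AAD6 without bacteria differed by -0.56 ± 0.21 (edgeR adjusted p = 0.0498), and PDC1 by -0.46 ± 0.17 (edgeR adjusted p = 0.0454). Both lost the call without unexposed wild-type replicate 3, at -0.29 for AAD6 and -0.26 for PDC1, and without unexposed gp1-2 replicate 2, at -0.37 and -0.32. Over all 22 alternative settings the call was lost in 11 for AAD6 and 10 for PDC1, in 8 of which 1 library was left out. Under volatiles neither was called (-0.08 ± 0.19 for AAD6, edgeR adjusted p = 0.767; -0.39 ± 0.15 for PDC1, edgeR adjusted p = 0.0514), though PDC1 was called in 12 alternative settings, at -0.47 without exposed wild-type replicate 3. ADH1, SUS4 and PFK6 were not called between the genotypes in either condition; without exposed wild-type replicate 3, SUS4 was called under volatiles (-0.49).

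Outside the list, GAD4 averaged 53.1 ± 5.90 CPM in gp1-2 with volatiles, against 8.38 ± 1.06 CPM in wild type with volatiles, and 29.2 ± 7.55 CPM in gp1-2 without bacteria, against 4.43 ± 0.799 CPM in wild type without bacteria (log2 differences 2.66 and 2.74, edgeR adjusted p = 4.6e-09 and 1.8e-08). The phosphofructokinase PFK3 was higher in gp1-2 by 2.41 and 2.21 (edgeR adjusted p = 2.6e-11 and 1.4e-10), and the alanine aminotransferase AlaAT1 by 0.99 and 0.94 (edgeR adjusted p = 1.2e-07 and 3.4e-07). Of the 21 tested fermentation and glycolysis genes outside the list, 11 were higher and 1 lower in gp1-2 under volatiles, and 9 were higher and 0 lower without bacteria (57.1% and 42.9% called, against 45.9% and 37.2% of all genes tested). Of the 12 upstream genes of the pathway, 1 was higher and 2 were lower under volatiles, and 3 were higher without bacteria, so that 25.0% were called in each condition, below the same background. PGB2 was lower in gp1-2 in both conditions (-1.29 and -0.79, edgeR adjusted p = 4.9e-07 and 1.1e-04).

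Whether the volatiles acted differently in the 2 genotypes was tested as the effect in gp1-2 minus the effect in wild type. Of the 43 tested members 1 was called (2.33%), against 2.80% of all genes tested (1.48% higher and 1.32% lower), and 9 of the 43 had an unadjusted p under 0.05, against 3141 of the 20736 genes tested. The member was AT3G10020, which fell less in gp1-2 than in wild type (0.62 ± 0.16, edgeR adjusted p = 0.0494). That call sat at the threshold: it was lost in 11 of 21 alternative settings, 10 of which left out 1 library (every one but exposed wild-type replicate 3 and unexposed wild-type replicate 1), with values of 0.55 to 0.68 in those 10. AT3G23170 had the largest difference, 1.40 ± 0.43, with an edgeR adjusted p of 0.103. It was called without exposed wild-type replicate 1 (1.85) or unexposed wild-type replicate 3 (1.69). AT5G47060 (-0.51 ± 0.15, edgeR adjusted p = 0.0948), AT4G24110 (-0.61 ± 0.18, edgeR adjusted p = 0.0966) and AT4G27450 (-0.70 ± 0.22, edgeR adjusted p = 0.122) also missed the threshold. AT5G47060 was called without unexposed wild-type replicate 1 (-0.62, edgeR adjusted p = 0.0417), and both AT3G23170 and AT5G47060 were called with a replicate block (1.38 and -0.51, edgeR adjusted p = 0.0167 and 0.0487). For the fermentation genes the difference was -0.33 ± 0.17 for ADH1, 0.07 ± 0.23 for PDC1 and 0.19 ± 0.15 for PDC2 (edgeR adjusted p = 0.39, 0.933 and 0.615). It was -0.42 ± 0.17 for PGB1 and 0.48 ± 0.29 for AAD6 (edgeR adjusted p = 0.249 and 0.472). Apart from AT3G10020, whose call sat at the threshold, the main fit detected no difference between the genotypes in the volatile response of the tested members. That is not evidence that the responses were equal.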

How the data were processed

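RNA from whole seedlings was measured in 12 libraries, 3 per group, with groups read from the sample titles. The deposited values are whole-number gene counts in a single table made by the authors. Trimmomatic 0.36, HISAT2 2.1.0, HTSeq 0.9.1 and the build TAIR10 are named in the submitters' processing notes. The annotation release, the strand setting and the handling of shared reads are not given in the sources used here, and 13 of the 45 members overlap another annotated gene, so their counts are less certain.

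Counts were fitted in edgeR 4.0.16 (R 4.3.3, limma 3.58.1) after filterByExpr by group and scaling by the trimmed mean of M values, with 1 coefficient per group over all 12 libraries and the quasi-likelihood F test. P-values were adjusted by Benjamini-Hochberg over all 20736 genes tested, with an adjusted p under 0.05 as the threshold for a call. The SE is the absolute log2 fold change divided by the square root of F. The procedure was tested on simulated data. Alternatives were other scalings and filters, DESeq2 1.42.0, limma-voom, a replicate block, thinning to the smallest library, stricter thresholds and leaving out libraries.

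Sequences and loci came from RefSeq (TAIR10.1), with all 45 identifiers matched. Promoter windows were the 300 bases before the annotated gene start. The window of 1 member is counted but not reported here. The deposited table holds no coordinates, so those printed are of TAIR10.1 and not of the authors' annotation. The members and the gene lists were chosen with earlier results of these data known. Library values are given for the members of the sensing, fermentation and sugar roles, PGB1, HRU1 and AAD6, for the 3 largest called changes in each direction and comparison, for members that fell with volatiles, and for members called in the difference between genotypes. EXL1, AT3G29970 and AT5G10040 were added after their values were seen.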

Additional observations from a re-analysis of the deposited data

Results flagged for a closer look

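AT3G10020 was the member whose response to volatiles differed between the genotypes by the test of the difference itself: its effect in gp1-2 minus that in wild type was 0.62 ± 0.16 on the log2 scale (edgeR adjusted p = 0.0494). It was lower with volatiles in 3 of 3 exposed libraries of each genotype, by 1.28 in gp1-2 (log2 fold change -1.28) and by 1.90 in wild type (log2 fold change -1.90). The adjusted p lies at the threshold, and 1 such call among 43 tested members is 2.33%, against 2.80% of all genes. The call was lost in 11 of 21 alternative settings, among them upper-quartile scaling and the removal of most single libraries.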

How the results depend on the processing

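The direction of every member called in a comparison was kept under all alternatives run, and what changed was which members passed the threshold. With volatiles in gp1-2, 29 members were called and 17 with an absolute log2 fold change of at least 1; the member median of 0.56 was 0.68 with no filter on low counts, 0.71 with limma-voom and 0.56 to 0.73 with libraries left out. Between the genotypes under volatiles, 20 were called, 11 at an adjusted p under 0.01 and 5 with an absolute log2 fold change of at least 1; without bacteria 14 were called and 4 of at least 1, and the median of 0.02 ranged from -0.14 to 0.08 with libraries left out. For the difference between genotypes the count of 1 was 3 with a replicate block, 0 with upper-quartile scaling, 0 at an adjusted p under 0.01, 0 with an absolute log2 fold change of at least 1, and 0 to 2 with libraries left out. The cause was not tested. These counts are given without the share of all genes called at each setting, so they show how the calls moved and not a difference from the background.

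Over all groups 9 of 18 same-number pairs had a correlation over 0.1 (-0.0317 to 0.253), and 5 of 12 libraries correlated best with their own number in every other group. Only between unexposed gp1-2 and unexposed wild type were all 3 pairs over 0.1 (0.113 to 0.218). The main fit used no replicate block in any comparison, so its p-values there take no account of a possible pairing. The block was run as an alternative over all groups at once. With the replicate block the counts called were 30, 34, 21, 15 and 3, for volatiles in gp1-2, volatiles in wild type, gp1-2 against wild type under volatiles and without bacteria, and the difference between genotypes. The block lost no call and added AT1G26270 in the first, PDC2 and AT5G42200 in the second, PDC1 in the third, HRU1 in the fourth, and AT3G23170 and AT5G47060 in the last. Thinned to the smallest library, 15 members were called between the genotypes under volatiles, against 20. The share of all genes called with the block or with thinning is not given beside these counts. Depth limits HRE2, AT2G17850, AT3G29970, AT5G10040 and ARD3 in wild type, which had few counts in some groups.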
